A study of Mus musculus with 2 samples.

Results

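The genes described here encode the machinery that turns a muscle action potential into a rise of cytosolic calcium, together with the proteins that store, re-supply and sense that calcium. They are 48 genes chosen by symbol, of 55536 annotated genes in the gene tables: the release channels and voltage sensor of the triad, its adaptors and junctional membrane proteins, luminal calcium-binding proteins, store-operated entry, mitochondrial uptake, calmodulin with its kinases, and the IP3 receptors. All 48 symbols were found. Total RNA was measured in the gastrocnemius, a calf muscle made mainly of fast fibres, of male B6CASTF1/J mice (first-generation offspring of C57BL/6J and CAST/EiJ) aged 14 days. The series has 1 group of 2 replicate libraries, each made from 300 ng of RNA to which ERCC control RNAs had been added, and no treatment or genotype contrast is labelled. The labels mention 3 males and record a biosample of its own for each library but 1 shared donor identifier, so separate animals are not certain, and every p-value compares these libraries by their counting error and no wider population. The comparisons are therefore between genes within a library, between both libraries, and between the authors' 2 quantifications of each library. Paired values are given for replicate 1 and then for replicate 2.

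In skeletal muscle, the calcium channel Cacna1s in the transverse tubule acts mainly as a voltage sensor and opens the ryanodine receptor Ryr1 in the facing sarcoplasmic reticulum through direct mechanical coupling. In heart, the related pair Cacna1c and Ryr2 is coupled by calcium entry instead. The luminal protein calsequestrin holds the releasable calcium close to Ryr1, and several genes of the system switch between embryonic, slow, fast and cardiac forms by paralogue choice or by alternative exons.

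Short coding exons separate the muscle forms of several of these genes, and the following stretches are shown because the transcript shares given further on turn on whether they are included. They were read from GENCODE M21 transcripts on GRCm38 (mm10), run 5' to 3' on the coding strand, and carry the variable stretch in capitals and the flanking coding bases in lower case. The Cacna1s exon of 57 bases lies at chr1:136104570-136104626 on the plus strand and is the alternative exon known to be left out of the embryonic channel. The Ryr1 exon of 15 bases lies at chr7:29056234-29056248 on the minus strand and is a known developmentally regulated insertion of the release channel.
Cacna1s exon: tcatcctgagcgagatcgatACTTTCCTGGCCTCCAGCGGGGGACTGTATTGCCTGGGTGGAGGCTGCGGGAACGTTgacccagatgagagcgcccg
Ryr1 exon: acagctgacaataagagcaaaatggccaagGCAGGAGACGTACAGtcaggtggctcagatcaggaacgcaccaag
The Stim1 extension of 324 bases lies at chr7:102430952-102431275 on the plus strand, and its first 240 bases are shown; it marks the long form of this calcium sensor. The Cacna2d1 exon of 57 bases lies at chr5:16322539-16322595 on the plus strand, in the auxiliary subunit of the voltage sensor.
Stim1 extension: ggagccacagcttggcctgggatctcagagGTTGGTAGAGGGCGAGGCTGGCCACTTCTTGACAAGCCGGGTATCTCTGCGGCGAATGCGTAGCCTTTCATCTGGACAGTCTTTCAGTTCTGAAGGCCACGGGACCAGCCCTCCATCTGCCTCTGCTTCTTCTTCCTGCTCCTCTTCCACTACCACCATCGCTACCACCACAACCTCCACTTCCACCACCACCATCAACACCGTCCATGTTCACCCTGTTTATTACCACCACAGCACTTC
Cacna2d1 exon: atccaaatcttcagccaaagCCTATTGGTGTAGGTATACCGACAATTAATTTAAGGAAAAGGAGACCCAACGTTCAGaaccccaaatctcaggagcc
The length of each stretch shown is divisible by 3, so its inclusion keeps the reading frame.

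Of the 48 genes, 40 reached at least 1 TPM (a read level scaled by transcript length and by the library's total) in both libraries, 32 reached 10 TPM and 17 reached 100 TPM. For comparison, 49.2% of 22028 protein-coding genes reached 1 TPM in both libraries. No member was at 0 counts, and 5 stayed under 1 TPM in both libraries, namely Ryr2, Cacnb2, Cacnb4, Stac and Fkbp1b. The summed level of all members was 8129 and 8368 TPM, of which Casq1 alone held 36.9% and 37.9%. The median level over the 48 genes was 44.5 TPM. The tables rest on 40825601 expected counts in replicate 1 and 37329025 in replicate 2.

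**Figure D1:**
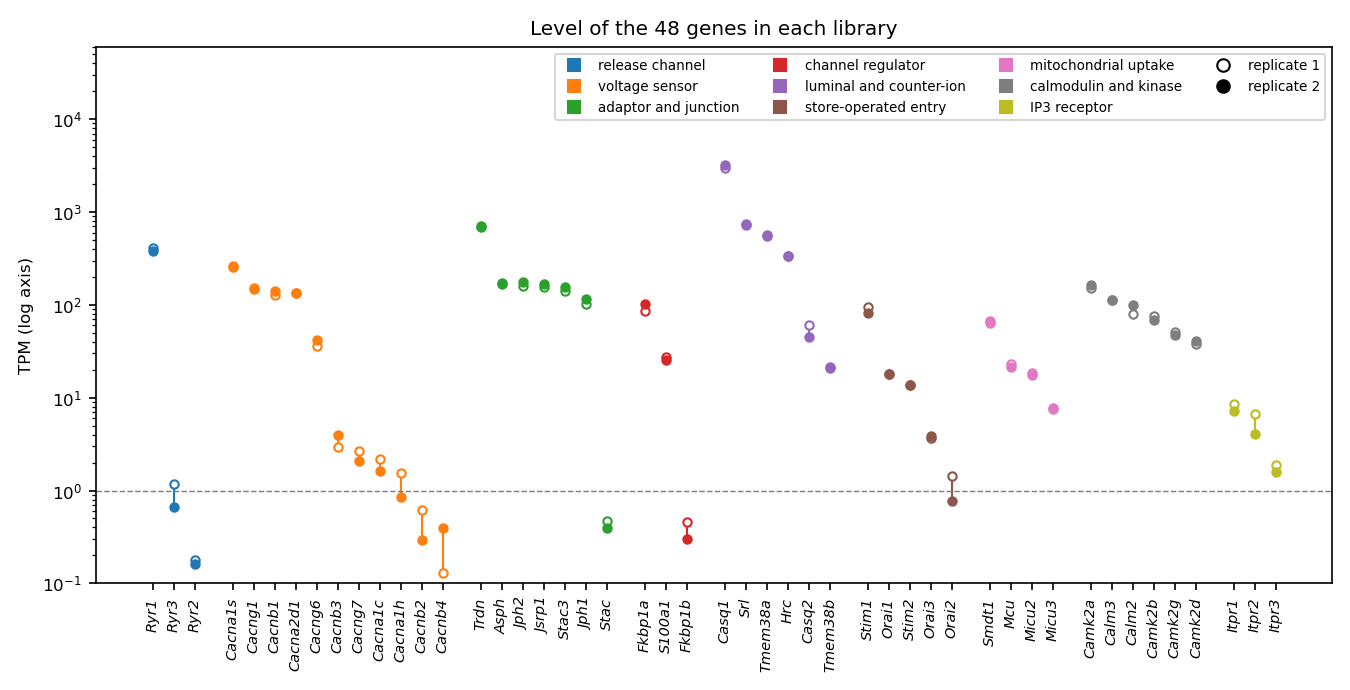
Level of each of the 48 genes in TPM on a log axis, grouped by role, with an open circle for replicate 1 and a filled circle for replicate 2. The dashed line marks 1 TPM; Casq1 stands highest with 2996 and 3175 TPM, and the heart and brain paralogues Ryr2, Cacnb2, Cacnb4, Stac and Fkbp1b lie below the line in both libraries.

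The labelled tissue was checked against marker lists. All 7 fast fibre markers were present, led by Mylpf, Myh4, Tnnt3 and Tnni2, with a summed level of 60753 and 64528 TPM, against 1114 and 1054 TPM for the 6 slow fibre markers. Of 6 heart markers, Nppa, Nppb and Myl7 were listed at 0 in both libraries, and Myh6 made up most of the list's 57.5 and 51.6 TPM. Smooth muscle and pericyte markers summed to 374 and 364 TPM, endothelial markers to 129 and 113 TPM, fibroblast markers to 1818 and 1317 TPM, macrophage markers to 21.5 and 21.2 TPM, satellite cell markers to 5.73 and 5.84 TPM, Schwann cell markers to 78.6 and 116 TPM, and neuron markers to 2.34 and 2.64 TPM. Other cell types were thus present in the tissue, so in these bulk samples fewer cells of a type and less RNA per cell cannot be told apart for any member.

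Ryr1, the release channel of skeletal muscle (ENSMUSG00000030592.18, chr7:29003344-29125179), had 407 and 379 TPM, from 186881 and 166750 counts, the most counts of any member. Ryr3, the form known from developing muscle and diaphragm, had 1.18 and 0.67 TPM. Ryr2, the heart form, had 0.18 and 0.16 TPM from 32 and 27 counts. Ryr1 therefore made up 99.7 ± 0.0809% of the summed TPM of the 3 ryanodine receptors (SD, n = 2). Ryr3 shares its locus with Aven on the opposite strand (7.13 and 9.70 TPM), and the use of strand in counting is not given in the sources used here, so its low value is uncertain.

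The voltage sensor showed the same concentration on 1 gene. Cacna1s, its pore (chr1:136052750-136119822), had 263 and 255 TPM, and took 98.8 ± 0.299% of the 3 pore genes listed (SD, n = 2). Cacna1c, the pore of heart and smooth muscle, had 2.19 and 1.64 TPM, and Cacna1h, a low-voltage-activated pore, had 1.53 and 0.86 TPM. Both lay close to 1 TPM, and Cacna1c overlaps Dcp1b on the opposite strand (1.91 and 1.73 TPM).

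Among auxiliary subunits of the sensor, Cacnb1, the cytosolic beta subunit of skeletal muscle, had 127 and 140 TPM. Cacnb3 had 2.96 and 3.94 TPM, Cacnb2 had 0.62 and 0.29 TPM, and Cacnb4 had 0.13 and 0.39 TPM. Cacnb1 made up 97.0 ± 0.258% of the beta subunit TPM (SD, n = 2). The Cacnb4 difference went in opposite directions by unit, since its counts were 33 and 22, and it is not read further. Cacna2d1, the extracellular alpha-2-delta subunit, had 133 TPM in both libraries. Cacng1, the gamma subunit of the skeletal channel, had 150 TPM in both libraries, Cacng6 had 35.8 and 41.5 TPM, and Cacng7 had 2.67 and 2.08 TPM. The gamma family was the less concentrated of these, with 78.5 ± 1.43% for Cacng1 and 20.2 ± 1.68% for Cacng6 (SD, n = 2).

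The leading gene of each subunit type was compared with the pore. Cacna1s had 1.95 ± 0.174 times the TPM of Cacnb1, 1.95 ± 0.0499 times that of Cacna2d1 and 1.73 ± 0.0434 times that of Cacng1 (SD, n = 2 for each). In the second quantification these ratios were 1.34, 1.43 and 1.28. The pore was thus the higher gene in both, but its excess depended on the quantification. The level of Cacna1s includes a noncoding model, Cacna1s-203, whose share also depended on the quantification, as given further on. Ryr1 had 1.52 ± 0.0433 times the TPM of Cacna1s (SD, n = 2), and 2.04 times in the second quantification.

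Adaptors and junctional proteins were abundant except for Stac. Stac3, the adaptor needed for skeletal coupling, had 142 and 158 TPM, whereas its relative Stac had 0.47 and 0.39 TPM. Jph2 and Jph1, the junctophilins that tie the tubule to the reticulum, had 159 and 176 TPM and 103 and 117 TPM. Both junctophilins contributed, with 60.4 ± 0.269% from Jph2 (SD, n = 2). Jsrp1, a protein of the junctional face membrane that binds the voltage sensor, had 156 and 166 TPM.

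Trdn, encoding triadin, which anchors calsequestrin to the release channel, had 692 and 703 TPM. Asph, whose locus yields junctin and junctate as well as an aspartyl hydroxylase, had 168 and 170 TPM. Triadin lay 4.12 ± 0.0102 times above Asph (SD, n = 2) in the gene table and 2.15 times above it in the second quantification. The direction was shared, and the size of the gap was not.

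Small regulators of the release channel were led by Fkbp1a. Fkbp1a, the immunophilin bound to Ryr1, had 85.9 and 102 TPM, and Fkbp1b, its relative bound to the heart receptor, had 0.46 and 0.30 TPM from 13 and 8 counts. Fkbp1a made up 99.6 ± 0.170% of the pair (SD, n = 2). S100a1, a calcium-binding regulator of Ryr1, had 27.6 and 25.7 TPM. The coding regions of Fkbp1a and Fkbp1b are both 324 bases long and differ at 82 positions (74.7% identical), with no shared run over 14 bases. Their first 150 bases are shown, with differing bases in capitals (31 of them), because the pair shows how far apart these paralogues are in the tables' reference.
Fkbp1a-201: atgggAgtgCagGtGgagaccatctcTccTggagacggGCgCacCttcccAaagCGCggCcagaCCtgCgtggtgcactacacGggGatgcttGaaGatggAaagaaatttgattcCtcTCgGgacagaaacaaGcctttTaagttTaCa
Fkbp1b-201: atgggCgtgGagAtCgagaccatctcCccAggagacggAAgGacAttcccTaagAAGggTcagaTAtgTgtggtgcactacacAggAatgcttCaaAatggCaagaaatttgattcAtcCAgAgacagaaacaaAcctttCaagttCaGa

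The luminal proteins Casq1 and Srl had the highest levels of the 48 genes. Casq1, fast-muscle calsequestrin (chr1:172209894-172219868), had 2996 and 3175 TPM, and ranked 24 among protein-coding genes. Casq2, the form of heart and slow fibres, had 60.1 and 45.5 TPM. Casq1 thus took 98.3 ± 0.391% of the pair (SD, n = 2), and 97.5% in the second quantification. Per Ryr1 transcript, Casq1 stood at 7.88 ± 0.724 (SD, n = 2), and at 7.79 in the second quantification.

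Srl, encoding sarcalumenin, which binds calcium in the longitudinal reticulum, had 725 and 737 TPM. Hrc, the histidine-rich calcium-binding protein, had 336 and 335 TPM. Tmem38a, the counter-ion channel TRIC-A that balances charge during release, had 561 and 547 TPM, and its relative Tmem38b had 21.2 and 21.03 TPM. Tmem38a made up 96.3 ± 0.0376% of that pair (SD, n = 2). All 6 luminal and counter-ion genes were above 20 TPM in both libraries.

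Stim1 and Orai1 had the highest levels among the 5 listed members of store-operated entry. Stim1, the calcium sensor of the reticulum membrane, had 94.8 and 82.7 TPM, against 13.8 and 13.5 TPM for Stim2. Orai1, the pore in the tubule membrane, had 17.8 and 18.2 TPM, Orai3 had 3.65 and 3.85 TPM, and Orai2 had 1.43 and 0.77 TPM. Stim1 took 86.6 ± 0.953% of its pair and Orai1 took 78.8 ± 1.37% of its family (SD, n = 2 for both). The sensor exceeded the pore by 4.93 ± 0.546 times (SD, n = 2), and by 4.81 times in the second quantification.

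Mitochondrial uptake genes lay at moderate levels. Mcu, the pore of the uniporter, had 23.0 and 21.2 TPM, and Smdt1, its small essential subunit EMRE, had 63.7 and 67.8 TPM. Micu2 and Micu3, gatekeepers of the pore, had 18.4 and 17.8 TPM and 7.57 and 7.84 TPM. Smdt1 lay 2.98 ± 0.3003 times above Mcu (SD, n = 2), and 5.05 times above it in the second quantification. Smdt1 showed the largest upward move of any member averaging 1 TPM or more between the quantifications.

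Calmodulin and its kinases were expressed from several genes at once. Calm3 had 112 and 113 TPM and Calm2 had 79.1 and 100 TPM. Camk2a had 151 and 163 TPM, Camk2b 76.7 and 69.3 TPM, Camk2g 51.6 and 46.9 TPM, and Camk2d 38.1 and 41.2 TPM. No kinase gene passed 80% of the family, and Camk2a led with 49.2 ± 2.35%, ahead of 22.9 ± 1.80% for Camk2b (SD, n = 2 for both).

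The share of Calm3 in the calmodulin pair was 55.7 ± 3.93% in TPM (SD, n = 2) and 70.9% in counts, which are not scaled by length. Calm2 carried fractional counts in both libraries and Calm3 in replicate 2. The coding regions of Calm2-201 and Calm3-201 are each 447 bases long and differ at 78 positions (82.6% identical), 74 of them at the last base of a codon and 4 at its first. The longest identical run was 17 bases. The first 300 bases are printed, with the 50 differing bases in capitals, because they show how densely the mismatches lie that separate reads of the pair.
Calm2-201: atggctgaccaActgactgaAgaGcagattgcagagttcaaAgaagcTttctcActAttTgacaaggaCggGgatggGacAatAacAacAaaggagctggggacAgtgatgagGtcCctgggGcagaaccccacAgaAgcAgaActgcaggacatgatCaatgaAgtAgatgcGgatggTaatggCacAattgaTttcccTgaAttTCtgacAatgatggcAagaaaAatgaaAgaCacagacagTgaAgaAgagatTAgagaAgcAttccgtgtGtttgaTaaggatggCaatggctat
Calm3-201: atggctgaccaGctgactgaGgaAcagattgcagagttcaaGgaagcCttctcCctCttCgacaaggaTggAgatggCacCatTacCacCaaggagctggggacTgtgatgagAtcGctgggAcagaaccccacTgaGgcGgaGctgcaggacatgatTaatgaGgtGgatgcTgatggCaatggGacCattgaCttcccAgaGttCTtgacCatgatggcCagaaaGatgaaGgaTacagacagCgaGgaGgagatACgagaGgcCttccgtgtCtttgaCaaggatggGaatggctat

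IP3 receptors, the release channels opened by inositol trisphosphate, stood far below Ryr1. Itpr1 had 8.49 and 7.26 TPM, Itpr2 had 6.60 and 4.08 TPM, and Itpr3 had 1.88 and 1.57 TPM. Their shares were 53.1 ± 4.39%, 35.2 ± 5.15% and 11.6 ± 0.766% (SD, n = 2 for each). Ryr1 had 50.03 ± 2.98 times the TPM of Itpr1 (SD, n = 2). The Itpr1 locus holds Gm44040 on the opposite strand (5.95 and 7.48 TPM).

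**Figure D2:**
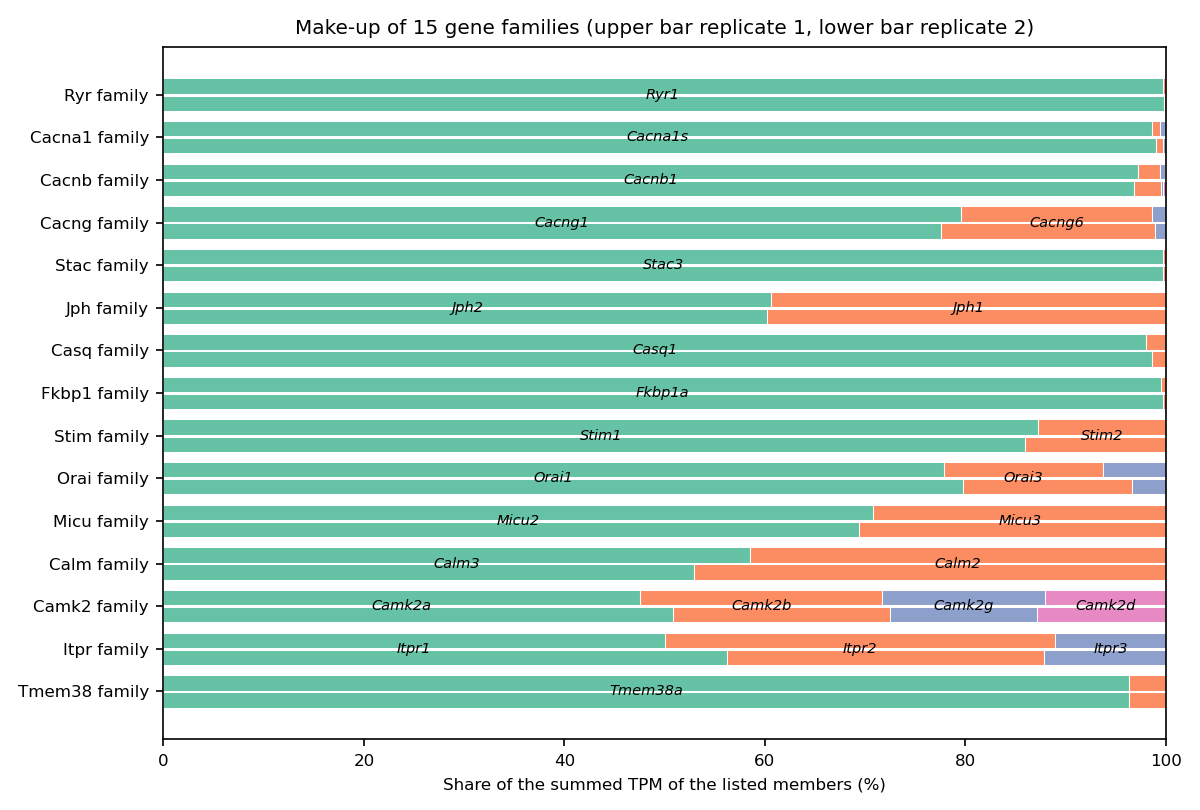
Share of each member in the summed TPM of its family, as stacked bars in percent, with the upper bar of each pair for replicate 1 and the lower for replicate 2. In 8 of the 15 families the leading gene holds at least 80%, among them Ryr1 with 99.7% and Casq1 with 98.3%; the kinase, IP3 receptor, calmodulin and junctophilin families are divided among members.

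Over the 15 families, the gene with the highest mean share was the same in both quantifications in all 15, and the number of families led with at least 80% was 8 in the gene table and 9 in the second quantification. Ordering all 48 genes by mean TPM gives 47 pairs of neighbours. In 23 of these pairs the library ranges overlapped, so their order is not resolved, as for Jph2, Jsrp1, Camk2a, Stac3 and Cacng1 in the range of 142 to 176 TPM. In the second quantification 15 of the 47 pairs stood in the other order. Above these, the order Casq1, Srl, Trdn, Tmem38a, Ryr1, Hrc, Cacna1s had no overlapping ranges in the gene table, and Trdn with Tmem38a changed places in the second quantification. With 2 libraries, an exact sign-flip test of any such ratio cannot go below p = 0.5, so the ratios are given as descriptions.

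Levels in the second quantification were higher for most members, by a median of 1.32 times, beside 1.35 times over all genes averaging 1 TPM or more. Among members averaging 1 TPM or more, the ratio was lowest for Stac3 (0.805) and highest for Smdt1 (2.45). Asph (1.79), Casq2 (1.84) and Cacna1h (1.98) were also raised more than the median, while Cacna1s (0.946) and Trdn (0.934) were lower. The following transcript shares show that several of these genes were divided differently among their annotated models.

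**Figure D3:**
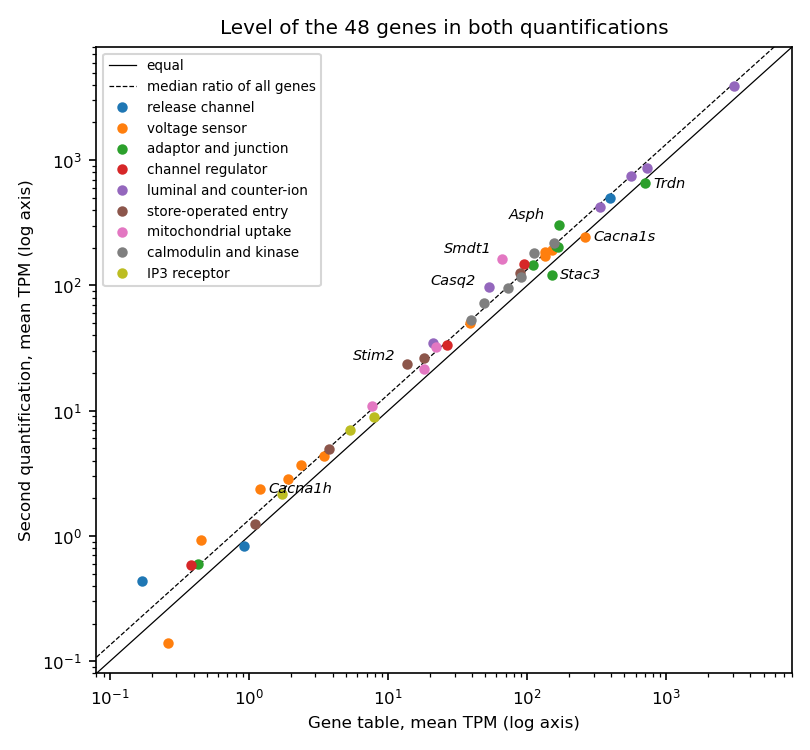
Mean TPM of each of the 48 genes in the gene table (x axis, log) and in the second quantification (y axis, log), 1 point per gene, coloured by role. Most points follow the dashed line, the median ratio of all genes, and Smdt1, Asph and Casq2 lie above it while Stac3, Cacna1s and Trdn lie below it.

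The 48 genes have 354 annotated transcripts, and 97 of them held at least 10% of their gene's TPM on average. For 19 genes the leading transcript held at least 80%, and for 36 of 48 it was the same transcript in both quantifications. Ryr1-202, Hrc-201, Jph1-201, Jph2-201 and Tmem38a-201 were such dominant forms, with 93.7%, 98.2%, 99.7%, 99.5% and 98.9% of their gene's TPM.

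The alternative exon of the voltage sensor shown above was nearly always included. Of the TPM of the pair Cacna1s-204 and Cacna1s-202, the model that lacks the 57 bases had 2.33% in replicate 1 and 1.92% in replicate 2, or 2.12 ± 0.295% (SD, n = 2). The second quantification gave it 5.46% and 7.19%. In both, the model with the exon was the main one. The Ryr1 insertion gave a like picture, since Ryr1-201, which lacks the 15 bases, had 0.618% and 0.8998% of its pair with Ryr1-202, and 0.876% and 0.909% in the second quantification. Ryr1-201 also differs from Ryr1-202 at other small stretches, so its share is not that of the exon alone.

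The long and short forms of Stim1 were both substantial. Stim1-202, with the extension, had 31.0 and 28.1 TPM, and Stim1-201, without it, had 35.3 and 35.6 TPM. The extended form was 45.5 ± 1.86% of the pair (SD, n = 2), and 43.9% in the second quantification. A further fragment, Stim1-207, held 20.3% of the gene's TPM but 3.30% of its counts. Its model is 619 bases long.

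Camk2b also divided between a shorter and a longer form in a stable ratio. Camk2b-202, whose extra coding exons lengthen the linker of the kinase as in its known muscle form, had 21.2 and 19.4 TPM, and Camk2b-209, without them, had 49.1 and 45.8 TPM. The longer form was 29.97 ± 0.258% of the pair (SD, n = 2), and 30.3% in the second quantification. The Cacna2d1 pair was less settled. Cacna2d1-201, which carries the exon shown above, was 32.6 ± 2.01% of its pair with Cacna2d1-202 (SD, n = 2), and 47.4% in the second quantification. Of the whole gene's TPM, Cacna2d1-201 held 29.4%, and 34.7% in the second quantification. Cacna2d1-205, a coding model outside the pair, held 3.89% and 21.8%, so the shift of the pair's share is not that of the exon alone.

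Camk2a held short coding forms of up to 600 bases, the size class of the anchoring protein alpha-KAP, which lacks the kinase domain and sits in the reticulum membrane. These took 61.3 ± 0.779% of the gene's TPM, led by Camk2a-204 with 74.3 and 76.9 TPM (SD, n = 2). The models of kinase length took 38.7%, led by Camk2a-203 with 59.2 and 62.2 TPM. In counts, which favour long transcripts, the short forms had 25.2%, and in the second quantification they had 66.0% of TPM. The level of Camk2a at the head of its family therefore includes a majority of transcripts whose coding region is shorter than the kinase.

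Asph was almost wholly in short forms. Models with a coding region of up to 1000 bases, the class of junctin and junctate, held 96.2 ± 1.07% of its TPM, and the hydroxylase-length models held 2.39 ± 0.171% (SD, n = 2 for both). The second quantification gave 97.0% and 1.76%. Within the short class the split was not stable, since Asph-201 had 1.17% in the transcript table and 34.5% in the second quantification.

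Triadin was divided between its long form, Trdn-201, and several short ones. Trdn-201 had 154 and 162 TPM, or 22.7 ± 0.554% of the gene (SD, n = 2), but 63.7% of its counts. The short forms Trdn-205 and Trdn-206 had 287 and 292 TPM and 185 and 193 TPM. In the second quantification the long form took 43.2% of TPM. The short coding forms together held 76.0% of TPM in the transcript table and 55.3% in the second quantification, so they led as a class in both, while the leading single transcript changed.

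Some shares rested on short or noncoding models that took TPM with few counts. Stac3-203, a model of 373 bases, had 52.7 and 62.6 TPM and 38.4% of the gene's TPM, but 10.3% of its counts, and was at 0 in the second quantification. Srl-203, a retained-intron model of 349 bases, held 14.9% of TPM and 1.06% of counts. Casq1-202, also a retained intron, had 445 and 400.4 TPM, which is 13.7% of the gene, against 2.21% in the second quantification. Camk2d models with no coding region held 42.5% of TPM and 13.1% of counts. For Cacnb1, the coding model Cacnb1-202 had 2.44% in the transcript table and 36.5% in the second quantification.

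**Figure D4:**
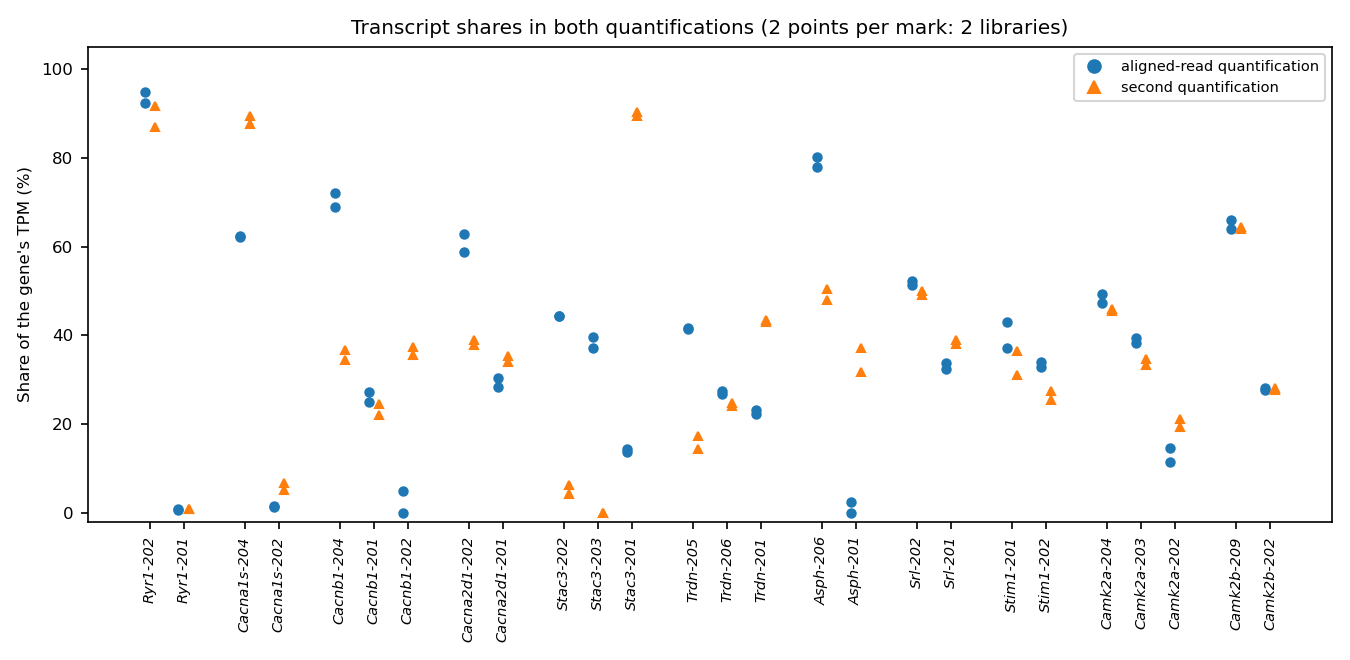
Share of the gene's TPM in percent for selected transcripts, with circles for the transcript table made from aligned reads and triangles for the second quantification, 2 points each for the libraries. Stim1 and Camk2b forms agree between quantifications, whereas Stac3, Cacnb1, Asph and Trdn forms are placed at different shares.

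The libraries were compared gene by gene by an exact binomial test (two-sided) of their rounded counts against library sizes scaled by TMM, a trimmed mean of log ratios, with Benjamini-Hochberg adjustment at 0.05 over the 17245 genes that had 10 or more counts. Of the 48 members, 24 passed, with 18 up in replicate 2 and 6 up in replicate 1 by scaled counts, beside 21.5% of all genes tested, of which 10.9% were up in replicate 2 and 10.6% in replicate 1. Members have high counts, and genes with at least 1000 counts passed more often: 38.7% of 6031 genes (22.6% up in replicate 2 and 16.1% up in replicate 1) and 21 of 34 members (61.8%; 18 and 3). The test covers counting error only and compares libraries of the same group. Scaling by the totals of the added ERCC RNAs, which moved all genes by a median of -0.29 on the log2 scale, turned the direction of 17 of the 24, and 39 members then passed, 38 of them up in replicate 1. The share of all genes passing under that scaling is not given, so the 39 are not read as a trait of the members. Camk2g, Smdt1 and Cacna2d1 no longer passed under plain totals, Camk2g without a count filter, and Orai2 in the second quantification. The differences were small. Among the 42 members averaging 1 TPM or more none was 1.5-fold apart on the TPM + 1 scale, beside 4.12% of 12156 genes, and the median log2 difference (replicate 2 minus replicate 1) was 0.01 with an SD over genes of 0.20, beside -0.04 and 0.30 over all genes. Without the pseudocount, 3 members lay more than 1.5-fold apart, namely Itpr2, Cacna1h and Orai2.

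Calm2 had the largest difference among members higher in replicate 2. Its count difference was 0.41 on the log2 scale (adjusted p = 1.6e-26, exact binomial test). Cacng6 differed by 0.26 (adjusted p = 4.1e-08), Jph1 by 0.23 (adjusted p = 7.6e-45), Cacnb1 by 0.22 (adjusted p = 2.6e-21), Jph2 by 0.21 (adjusted p = 4.7e-48) and Stac3 by 0.19 (adjusted p = 1.1e-08) in the same exact binomial test. Casq1 differed by 0.16 with 155441 and 155992 counts (adjusted p = 5.4e-201, exact binomial test), which shows how small a difference passes at that depth. Fkbp1a also passed with 0.16 (adjusted p = 6.1e-05, exact binomial test). In TPM, the noncoding model Fkbp1a-210, with 12.1 and 37.1 TPM, rose by more than the whole gene, with 85.9 and 102 TPM. The coding model Fkbp1a-201 had 57.6 and 60.1 TPM, and Fkbp1a-210 was close to 0 in the second quantification.

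The 6 members higher in replicate 1 were Itpr2, Casq2, Camk2b, Cacna1h, Orai2 and Ryr3. Itpr2 was lower in replicate 2 by 0.38 on the log2 count scale (-0.38, adjusted p = 8.6e-08, exact binomial test), and Casq2, the slow and cardiac calsequestrin, by a log2 value of -0.29 (adjusted p = 2.3e-17, exact binomial test). Camk2b had a log2 value of -0.08 (adjusted p = 0.0045, exact binomial test). Cacna1h, Orai2 and Ryr3 had between 83 and 318 counts in a library and log2 values of -0.40, -0.56 and -0.47 (adjusted p = 0.023, 0.029 and 0.0023, exact binomial test).

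Marker sums moved between the libraries beside these differences. The fast fibre sum was 60753 and 64528 TPM, on the side of the members up in replicate 2, with log2 count differences of 0.19 for Mylpf, 0.08 for Myh4, 0.14 for Tnnt3 and 0.15 for Tnni2. Of its 7 markers, 5 passed the binomial test up in replicate 2 and 2 up in replicate 1. The fibroblast sum was 1818 and 1317 TPM, and the endothelial sum was 129 and 113 TPM, both on the side of Itpr2. The slow fibre sum was 1114 and 1054 TPM, on the side of Casq2, but by scaled counts Myh7 alone passed up in replicate 1 (-0.13), Myl3 passed up in replicate 2 (0.09) and the other 4 did not pass. The Schwann cell sum was 78.6 and 116 TPM, on the side of Calm2. Their part in the member differences was not tested.

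For 9 members the TPM and the TMM-scaled count differences had opposite signs, and 2 of these passed the test, Hrc and Camk2g. Hrc had 336 and 335 TPM with a log2 count difference of 0.06, and Camk2g had 51.6 and 46.9 TPM with 0.09. Both are counted above by the sign of their scaled counts, which their TPM did not share. The interval that the quantifier itself gives did not meet between the libraries for 15 members, 12 of which also passed the binomial test. In each library 13 members had a TPM outside their own interval, 9 above it and 4 below it, Ryr1 and Casq1 among them, so the interval is not used as the error of the TPM. No share over all genes is given beside these interval counts, so they are not read as a trait of the members.

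**Figure D5:**
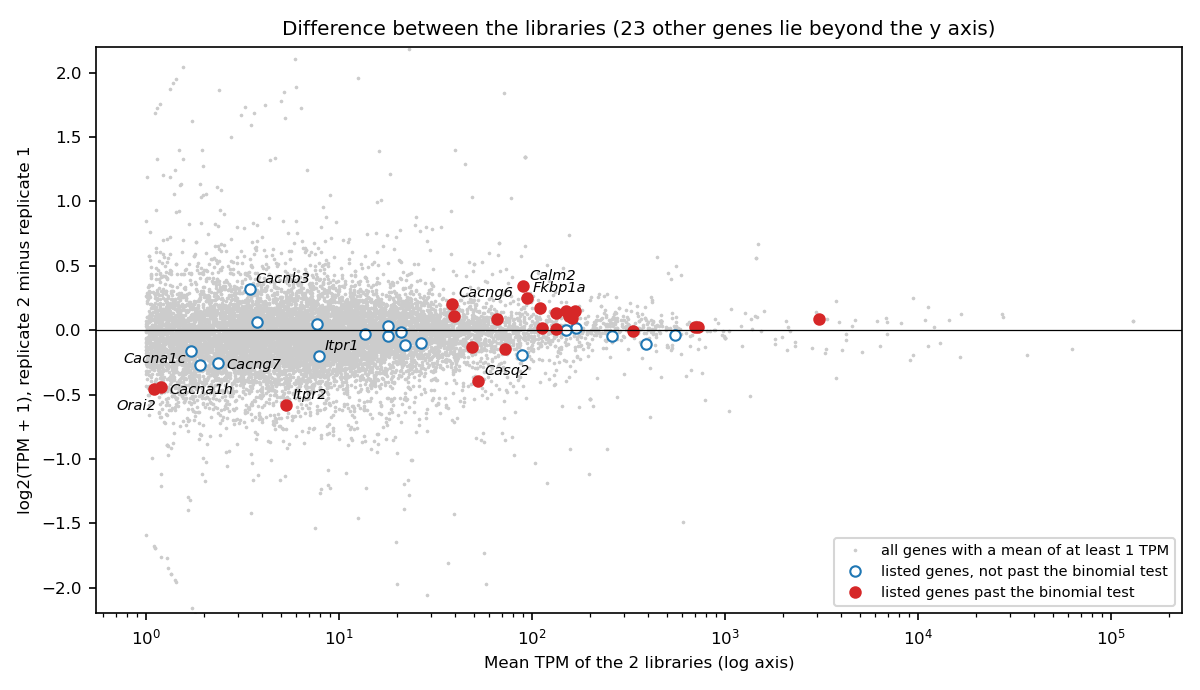
Difference between the libraries, as log2(TPM + 1) of replicate 2 minus replicate 1, against the mean TPM (log axis), for genes averaging at least 1 TPM. All such genes are in grey, members past the exact binomial test in red and the other members as open circles. Ryr3, which passed the test, averages less than 1 TPM and is not drawn. Members lie between -0.58 for Itpr2 and 0.34 for Calm2; 23 genes that are not members lie beyond the y axis.

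Other genes of muscle calcium handling were read from a list of 54, of which 36 reached 1 TPM in both libraries. The highest were Vdac1 (572 and 579 TPM), Vdac3 (159 and 165 TPM) and Vdac2 (144 and 139 TPM), which are channels of the outer mitochondrial membrane, Sypl2 (445 and 436 TPM), the triad membrane protein mitsugumin-29, Calr (88.8 and 92.7 TPM), a calcium-binding chaperone, and Tmem109 (87.0 and 78.8 TPM), a channel protein of the reticulum. Of 49 genes tested, 15 passed the exact binomial test, 14 up in replicate 2 and 1 up in replicate 1, beside the 21.5% of all genes. Their median log2 TPM difference was -0.0034 over the 36 of them averaging 1 TPM or more.

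Among these 15, Rcan1 and Nfatc4 were at least 1.5-fold apart in TPM without a pseudocount (0.77 and -0.45 as log2 differences of TPM + 1), both genes of calcineurin signalling, in which calcium and calmodulin activate a phosphatase that moves NFAT factors to the nucleus. Rcan1, a calcineurin regulator, had 19.1 and 33.4 TPM, a log2 count difference of 0.87 (adjusted p = 3.2e-64, exact binomial test). Nfatc4, an NFAT factor, had 3.40 and 2.22 TPM, a log2 count difference of -0.53 (adjusted p = 4.5e-04, exact binomial test). Both libraries carry the same labels, so no condition is attached to either difference.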

How the data were processed

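Total RNA was measured in 2 libraries of mouse gastrocnemius. Per library, the authors deposited a table of genes and a table of transcripts based on aligned reads, and another table of transcripts quantified against an index. The deposited expected counts are estimated reads per gene or transcript, not normalised. The authors' TPM has a constant total that includes the added RNAs. The gene table's lower and upper bounds of TPM are the quantifier's own. The build was mm10 with GENCODE M21, per the labels and the file headers; the names of the aligner and quantifiers, and the use of strand, were not given in the sources used here. Alleles of the hybrid were not separated.

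Expected counts were rounded. Library sizes were scaled by TMM in edgeR 4.0.16 (R 4.3.3) over genes kept by filterByExpr, and 2 other gene sets for TMM were tried; this set was kept after the calls under the others had been seen. Each gene with at least 10 counts over both libraries was given a two-sided exact binomial test (scipy 1.17.1), with Benjamini-Hochberg adjustment at 0.05 over every gene tested. The test was checked on simulated counts with planted fold changes and counting error only. That check does not cover wider variation between libraries. Log2 differences used log2(TPM + 1). DESeq2 1.42.0 size factors, totals of the added ERCC RNAs and plain totals were alternative scalings. Shares and ratios are means over both libraries with SD. The second transcript table was summed per gene for comparison. Exons were found by comparing coding regions in the M21 annotation. A count of 3 was taken as the floor; precision is limited by the 2 libraries.

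The members, the 54 other calcium genes and the lists of fast fibre, slow fibre, heart, smooth muscle and pericyte, neuron, Schwann cell, endothelial, macrophage, satellite cell and fibroblast markers were chosen with earlier results of these data known. All members are named; of the other calcium genes, the 6 highest and those past the test with a TPM fold of at least 1.5; of marker lists, at most the 4 highest, beside heart genes listed at 0; transcripts averaging 10% or more of their gene could be named, and those below it in the transcript table (Cacna1s-202, Ryr1-201, Cacnb1-202 and Asph-201) were chosen after their values were seen. A planned comparison of protein sequences was not run, and coding sequences of 2 pairs were compared instead. Sequence of 1 further alternative region is not reported here.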

Additional observations from a re-analysis of the deposited data

How the results depend on the processing

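No paired analysis was possible because the series has 1 group. Scaling by the totals of the added ERCC RNAs moved all genes by a median of -0.29 on the log2 scale against TMM. Under it 39 members passed, 1 higher in replicate 2 and 38 higher in replicate 1, and 29 other calcium genes, 2 and 27. The share of all genes passing under this scaling is not given, so these counts are not read as a trait of the members. The median log2 difference of members became -0.21. Log2 differences reversed under this scaling alone: Casq1 -0.14, Jph2 -0.0860, Calm3 -0.17, Trdn -0.20, Jsrp1 -0.15, Cacnb1 -0.077, Camk2g -0.21, Smdt1 -0.13, Srl -0.20, Camk2a -0.14, Fkbp1a -0.13, Hrc -0.24, Cacna2d1 -0.25, Stac3 -0.11, Jph1 -0.062, Camk2d -0.17, Cacng6 -0.0340, Calr -0.18, Vdac3 -0.20, Vdac1 -0.24, Sypl2 -0.26. Other scalings, count filters, TMM gene sets and the second quantification gave 23 to 27 members passing, so directions between libraries hold relative to the bulk of genes, not per added RNA. Under plain totals 2 other calcium genes, not 1, were higher in replicate 1. Of the 48 members, 43 kept their call under plain totals and 43 in the second quantification. Without replicate 1 or replicate 2, 40 to 43 members were detected and 21 in either case had a leading transcript of at least 80%. Members under 1000 counts passed less often, 3 of 14, than members with at least 1000 counts, 21 of 34. Over all genes, 21.5% of the 17245 tested passed, and 38.7% of the 6031 with at least 1000 counts. The planned comparison of protein sequences was not run.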
